A study of Homo sapiens with 24 samples.

Results

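The genes described here are feedback regulators and transcriptional outputs of ERK signalling: the dual-specificity phosphatases DUSP1, DUSP4, DUSP5, DUSP6 and DUSP10, the inhibitor SPRY2 and the ETS factors ETV4 and ETV5. They were chosen by name, with earlier results of these data known, so counts of them beside the share of all genes are descriptions. Each was read from 1 probe set, the one of highest mean over all 24 arrays. Of the 8 listed genes, 7 were measured among 11940 genes in all. ETV4 is named by no probe set of the annotation table used and was not analysed here. RNA came from A2780, an established human ovarian cancer line, read on Affymetrix HT-HG_U133A arrays, and the line was used in 2 forms: cells transfected with the empty vector pcDNA (12 arrays) and cells made to express Rab25, a small GTPase of recycling endosomes (12 arrays). Every culture had been kept without serum for 8 h. In each form, 4 arrays were of cells left starved. The growth factors EGF and IGF were added at 10 ng/ml, TGF beta at 5 ng/ml and fetal bovine serum (FBS) at 5%, with 2 arrays for each addition, and all 10 groups were divided equally between experiments 1 and 2. According to the protocol text the cells were exposed for 8 h in the first experiment and for 24 h in the second, but the source names say 24 h for both, so exposure time and experiment cannot be told apart. Each form of the line is a single transfected population as far as the labels say. The arrays are labelled as separate samples with no word on separate transfections, so the tests measure the spread between these arrays.

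ERK is the last kinase of the RAS, RAF and MEK cascade, which growth factor receptors switch on, and it turns on genes whose products then restrain it. DUSP5, DUSP4 and DUSP1 are nuclear phosphatases, DUSP5 being selective for ERK, while DUSP6 removes phosphate from ERK in the cytoplasm. DUSP10 acts mainly on the related kinases JNK and p38. SPRY2 acts upstream of ERK, between the receptor and RAF, and ETV5, an ETS transcription factor of the PEA3 subfamily, is transcribed when the pathway is active. The level of these transcripts is therefore often read as an account of recent ERK activity, although each also answers to other inputs.

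Promoter windows from RefSeq (build GRCh38.p14) were read for 4 of the measured genes, DUSP1, DUSP6, DUSP10 and SPRY2, with 7 windows in all. The chromosome of DUSP4 was left out of this reading, so the absence of DUSP4 says nothing about its promoter. The 250 bases upstream of the outermost start are shown for DUSP1, an immediate-early gene known to answer to CREB as well as to ERK, and for DUSP6 and SPRY2, which fell with FBS. Capitals mark any match, on either strand, to the cyclic AMP response element TGACGTCA, its half-site TGACG (which also matches inside the full element), the AP-1 site TGANTCA, the ETS site CCGGAAG or the CArG box bound by serum response factor.
DUSP1, chr5:172771196-172771445, minus strand: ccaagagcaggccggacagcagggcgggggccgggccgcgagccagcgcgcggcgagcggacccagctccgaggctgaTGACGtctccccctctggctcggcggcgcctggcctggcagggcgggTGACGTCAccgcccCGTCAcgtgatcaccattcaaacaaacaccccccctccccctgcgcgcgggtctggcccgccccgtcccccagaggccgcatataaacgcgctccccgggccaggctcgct
DUSP6, chr12:89352502-89352751, minus strand: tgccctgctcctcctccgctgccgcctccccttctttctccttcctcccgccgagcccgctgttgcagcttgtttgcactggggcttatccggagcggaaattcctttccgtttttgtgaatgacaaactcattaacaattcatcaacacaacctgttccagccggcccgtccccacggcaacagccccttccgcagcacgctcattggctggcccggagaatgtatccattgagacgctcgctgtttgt
SPRY2, chr13:80341127-80341376, minus strand: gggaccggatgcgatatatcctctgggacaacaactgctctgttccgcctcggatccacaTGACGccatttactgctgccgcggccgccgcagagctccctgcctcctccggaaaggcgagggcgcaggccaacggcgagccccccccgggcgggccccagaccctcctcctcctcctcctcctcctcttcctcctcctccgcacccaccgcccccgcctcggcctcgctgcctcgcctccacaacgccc
The DUSP1 window held 1 full cyclic AMP response element, from 125 to 118 bases before the start, and 4 half-site matches, 2 of them within that element. SPRY2 held 1 half-site from 190 to 186 bases before the start, and the DUSP6 window held none of these letters. Over 35116 RefSeq promoter windows of this length, 1.65% held the full element, 21.2% the half-site, 6.57% the AP-1 site, 8.52% the ETS site and 1.16% a CArG box. The matches are a description of the windows and nothing about binding was measured.

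Values are on the log2 scale throughout. The median over probe sets ranged from 6.92 to 7.23 across arrays, and array number sets the precision. RAB25 itself read 4.90 to 5.60 on the pcDNA arrays and 8.18 to 9.08 on the Rab25 arrays, which do not overlap. PAX8 (11.18 to 12.35 on the 22 arrays outside Rab25 FBS), KRT8, KRT18 and VIM, markers of this line, were high, whereas EPCAM and MUC16, markers of many ovarian carcinomas, read at most 5.29 and 5.16 there. Both Rab25 FBS arrays stood apart from the other 22. They read 10.48 and 7.57 for LUM, a proteoglycan gene of fibroblasts (at most 4.85 elsewhere), 8.57 and 8.84 for the mammary gene SCGB2A2 (at most 5.90) and 9.66 and 7.66 for CD74 (at most 5.97). Both were above all other arrays for 6 of 14 measured blood cell markers, 6 of 12 stromal, 2 of 10 breast epithelium, 1 of 7 adipocyte and 0 of 7 endothelial markers. PTPRC, a defining blood cell marker, read 5.68 and 5.70 there against 5.06 to 5.56 elsewhere, and the adipocyte marker ADIPOQ 5.08 and 5.08 against 4.68 to 5.19. On the log2 scale the summed stromal signal was 14.65 and 13.37 against 12.39 to 13.14 elsewhere, that of blood cells 11.18 and 10.74 against 9.92 to 10.47, that of breast epithelium 11.88 and 10.37 against 9.44 to 10.10, and that of adipocytes 9.02 and 10.83 against 8.47 to 8.86. The part of these signals in the results was not tested, and the main tests that rest on these arrays are given with and without them, except those of FBS within Rab25 cells, which have no value without them. In bulk RNA, a change in the share of cells of a type and a change in RNA per cell cannot be told apart.

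**Figure D1:**
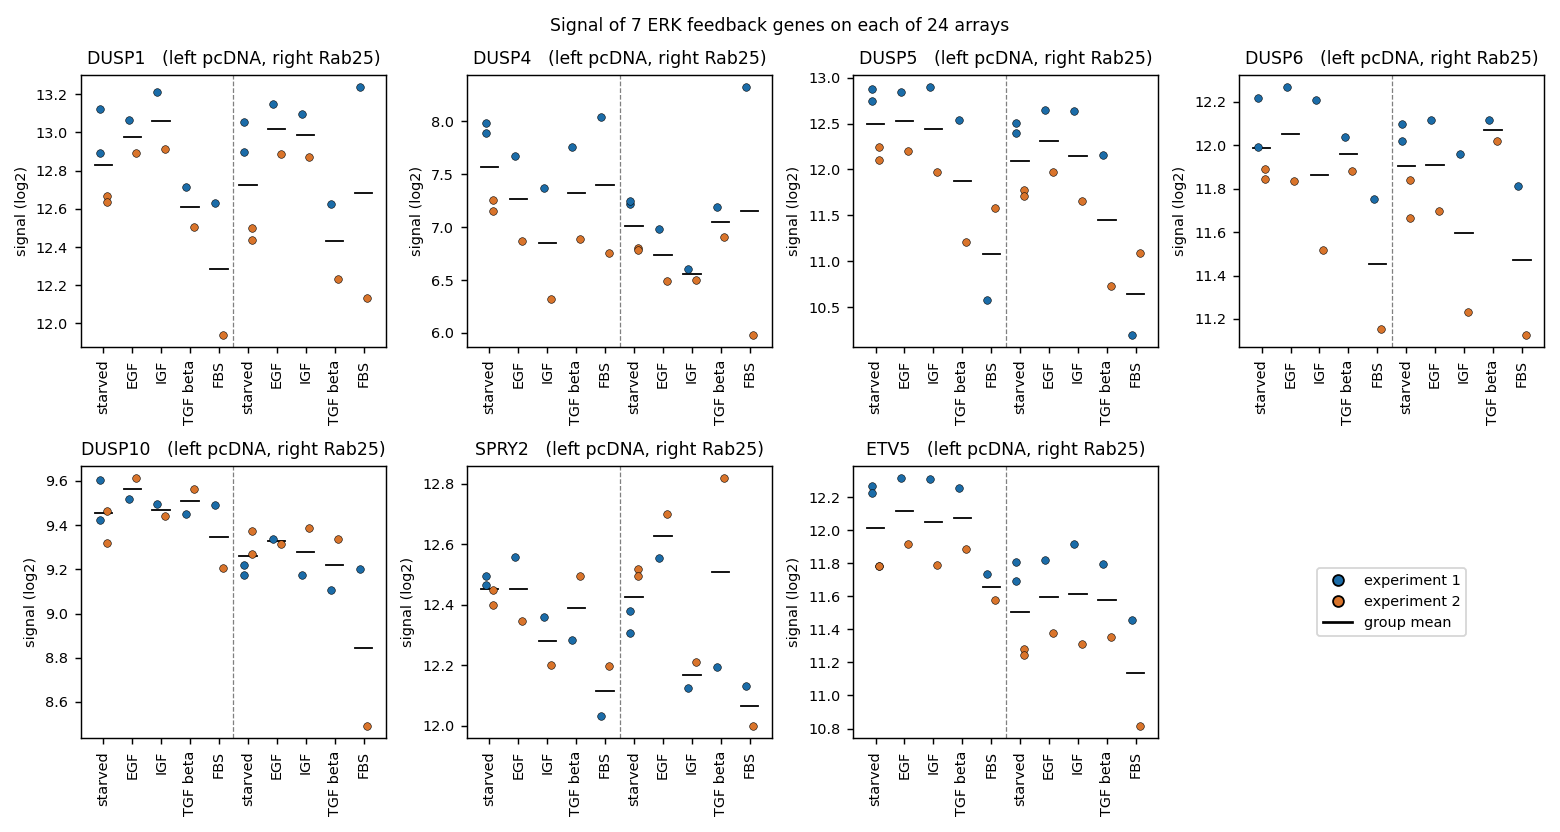
Signal (log2, vertical axis, scaled per gene) of 7 ERK feedback genes on every array, by line and treatment; points are arrays coloured by experiment and bars are group means. DUSP5 is lowest with FBS in experiment 1 (10.58 in pcDNA and 10.20 in Rab25 cells), while in experiment 2 it is lower with TGF beta (11.21 and 10.73) than with FBS (11.58 and 11.09), and ETV5 lies lower in Rab25 cells than in pcDNA cells within each treatment and experiment.

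FBS lowered 4 of the 7 genes over both lines and both experiments, and raised none. The main test, used for every comparison unless stated, was limma's moderated test on 10 group means with experiment as a term and p-values adjusted over all genes; 17.2% of the 11940 genes passed it for FBS at an adjusted p under 0.05, 10.8% as lower. The members' median difference was -0.35 (log2) against -0.03 over all genes. DUSP5 fell by 1.43 (SE 0.27, 2.70-fold, adjusted p = 0.00198), DUSP6 by 0.48 (SE 0.09, adjusted p = 0.00188), ETV5 by 0.37 (SE 0.06, adjusted p = 4.7e-04) and SPRY2 by 0.35 (SE 0.09, adjusted p = 0.012). All 4 were lower with FBS in 4 of 4 pairings of line and experiment. A fit without the Rab25 FBS arrays leaves the comparison in pcDNA cells, where DUSP5 (-1.41, adjusted p = 0.011), DUSP6 (-0.53, adjusted p = 0.013), ETV5 (-0.36, adjusted p = 0.0081) and DUSP1 (-0.55, adjusted p = 0.0043) were called and SPRY2 (-0.34, adjusted p = 0.085) was not, with 10.4% of all genes called. With array quality weights DUSP6 (-0.49, adjusted p = 0.065) and SPRY2 (-0.35, adjusted p = 0.16) also missed the threshold over both lines, and without the replicate block DUSP6 (-0.48, adjusted p = 0.15) and ETV5 (-0.37, adjusted p = 0.28) did.

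**Figure D2:**
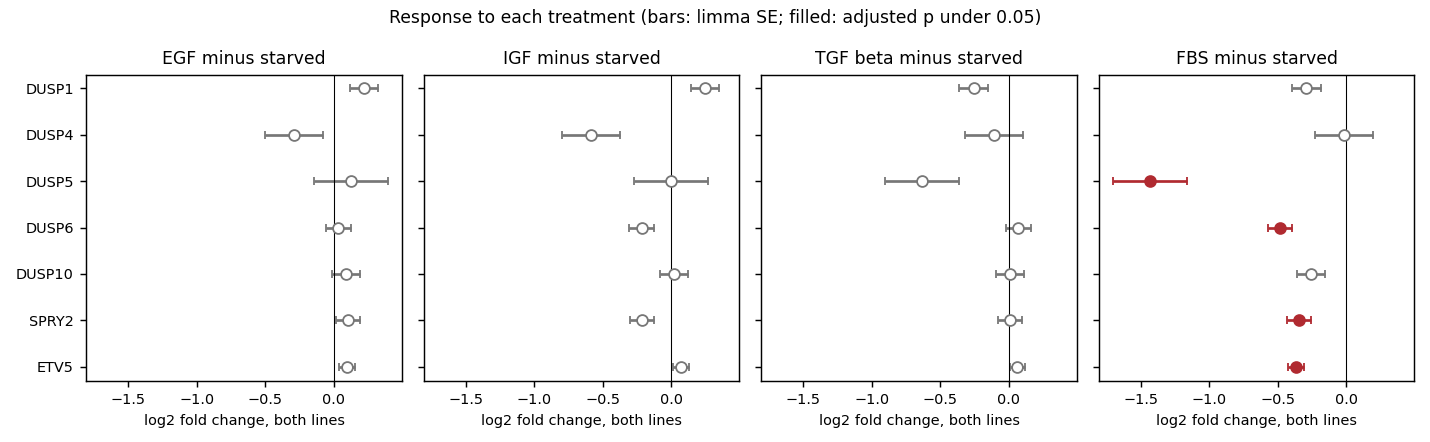
Difference from the starved arrays (log2, horizontal axis) of each gene for EGF, IGF, TGF beta and FBS, averaged over both lines; bars are limma standard errors and filled points passed an adjusted p of 0.05. Only the FBS panel holds filled points, at -1.43 for DUSP5, -0.48 for DUSP6, -0.35 for SPRY2 and -0.37 for ETV5.

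DUSP5, the ERK-selective nuclear phosphatase, had the widest response. In pcDNA cells of experiment 1 it read 12.74 and 12.88 starved and 10.58 with FBS, and in Rab25 cells 12.39 and 12.50 starved and 10.20 with FBS. In experiment 2 the pcDNA arrays read 12.24 and 12.10 starved and 11.58 with FBS, and the Rab25 arrays 11.78 and 11.71 starved and 11.09 with FBS. Every FBS array was thus below the starved arrays of its own line and experiment, and the drop was far deeper in experiment 1. In the fit with treatment by experiment terms, FBS called 5 of the 7 genes in experiment 1 (34.1% of all genes) and 6 in experiment 2 (8.25%). Without the Rab25 FBS arrays the counts were 5 (26.5%) and 3 (3.93%), and the 5 were not the same genes: DUSP1 was called lower there and not with all arrays, and DUSP4 was called higher with all arrays and not there. DUSP5 fell by 2.24 in experiment 1 (SE 0.07, 4.72-fold, adjusted p = 7.4e-10) and by 0.62 in experiment 2 (SE 0.07, 1.54-fold, adjusted p = 1.1e-04). The difference between experiments was itself 1.62 (SE 0.09, adjusted p = 8.9e-07), and 1.67 without the Rab25 FBS arrays (adjusted p = 8.3e-06). Each experiment holds 1 FBS array per line. Tests of single experiments and of their difference thus measure spread within experiments, not how far the responses would recur in others.

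DUSP6, the cytoplasmic ERK phosphatase, went the other way between experiments. Its starved values were 11.99 and 12.22 in pcDNA and 12.02 and 12.10 in Rab25 cells of experiment 1, against 11.75 and 11.81 with FBS. In experiment 2 they were 11.89 and 11.85 in pcDNA and 11.66 and 11.84 in Rab25 cells, against 11.15 and 11.13 with FBS, the lowest DUSP6 values of all 24 arrays. The FBS difference was -0.30 (SE 0.07, adjusted p = 0.0056) in experiment 1 and -0.67 (SE 0.07, adjusted p = 1.1e-04) in experiment 2, and these differed by -0.37 (SE 0.10, adjusted p = 0.020). Without the Rab25 FBS arrays that last difference was -0.33 with an adjusted p of 0.15, and it also missed the threshold without either pcDNA FBS array. The 3 DUSP6 probe sets gave FBS differences of -0.48, -0.46 and -0.51 over both experiments.

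ETV5 and SPRY2 were called lower with FBS in each experiment. ETV5 read 12.27 and 12.23 starved and 11.74 with FBS in pcDNA cells of experiment 1, and 11.78 and 11.78 starved and 11.58 with FBS in experiment 2. In Rab25 cells it read 11.70 and 11.81 starved and 11.45 with FBS in experiment 1, and 11.28 and 11.24 starved and 10.81 with FBS in experiment 2. Its FBS difference was -0.40 (SE 0.08, adjusted p = 0.0015) in experiment 1 and -0.33 (SE 0.08, adjusted p = 0.022) in experiment 2, and the test between experiments gave 0.08 (SE 0.11, adjusted p = 0.70). When the Rab25 FBS arrays were left out, ETV5 differed by -0.52 (adjusted p = 3.9e-04) in experiment 1 and -0.20 (adjusted p = 0.20) in experiment 2, which were 0.32 apart (adjusted p = 0.062). Its other probe sets gave -0.51 and -0.49 for FBS over both experiments. SPRY2, the receptor-level brake, read 12.47, 12.50, 12.45 and 12.40 on the pcDNA starved arrays and 12.03 and 12.20 with FBS. On the Rab25 arrays SPRY2 read 12.31, 12.38, 12.52 and 12.49 starved and 12.13 and 12.00 with FBS, so in each line the FBS and starved values did not overlap. The SPRY2 difference was -0.33 (SE 0.10, adjusted p = 0.023) in experiment 1 and -0.37 (SE 0.10, adjusted p = 0.043) in experiment 2, or -0.39 (adjusted p = 0.047) and -0.28 (adjusted p = 0.34) without the Rab25 FBS arrays. Its call over both lines was also lost without pcDNA FBS replicate 1, at -0.32 (adjusted p = 0.078).

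DUSP1, DUSP4 and DUSP10 had no call for FBS over both experiments, and the 4 cells of line and experiment did not share a sign. DUSP1, the stress-inducible nuclear phosphatase, read 12.63 and 11.94 with FBS in pcDNA cells, against 12.89, 13.13, 12.67 and 12.64 starved. In Rab25 cells it read 13.24 and 12.13 with FBS, against 12.90, 13.06, 12.50 and 12.44 starved, so that the Rab25 FBS array of experiment 1 was the highest of all 24. Its difference over both lines was -0.29 (SE 0.10, adjusted p = 0.061). In pcDNA cells DUSP1 fell by 0.55 (SE 0.15, adjusted p = 0.033 in the fit of all 24 arrays). DUSP1 kept this call in 19 of 24 fits that left out 1 array each. DUSP1 lost it when either pcDNA FBS array was left out, and also with the median of its probe sets. Over both lines its difference was -0.06 in experiment 1 (SE 0.09, adjusted p = 0.70) and -0.53 in experiment 2 (SE 0.09, adjusted p = 0.0037), and without the Rab25 FBS arrays -0.42 (adjusted p = 0.014) and -0.67 (adjusted p = 0.0058). Its other probe set gave -0.08 over both lines and experiments.

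DUSP4, another nuclear phosphatase, had the most scattered FBS values. The probe set used averaged 7.12 over all arrays, within the range of the array medians (6.92 to 7.23). Its other probe set averaged 5.92 (4.99 to 7.91). DUSP4 read 8.04 and 6.76 with FBS in pcDNA cells, against 7.89, 7.98, 7.15 and 7.25 starved. In Rab25 cells it read 8.32 and 5.98 with FBS, against 7.22, 7.24, 6.80 and 6.79 starved. The Rab25 FBS arrays were the highest and the lowest DUSP4 values of the series. The FBS difference was 0.60 in experiment 1 (SE 0.20, adjusted p = 0.035), -0.63 in experiment 2 (SE 0.20, adjusted p = 0.080) and -0.01 over both (SE 0.21, adjusted p = 0.97). The first 2 of these were 0.18 (adjusted p = 0.63) and -0.52 (adjusted p = 0.27) without the Rab25 FBS arrays. DUSP10, the JNK and p38 phosphatase, read 9.49 and 9.20 with FBS in pcDNA cells, against 9.42, 9.61, 9.32 and 9.46 starved. In Rab25 cells DUSP10 read 9.20 and 8.49 with FBS, against 9.22, 9.18, 9.37 and 9.27 starved, the 8.49 being its lowest value on any array. Its FBS difference was -0.01 in experiment 1 and -0.51 in experiment 2 (SE 0.10, adjusted p = 0.0069), and 0.04 and -0.25 (adjusted p = 0.36) without the Rab25 FBS arrays.

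**Figure D3:**
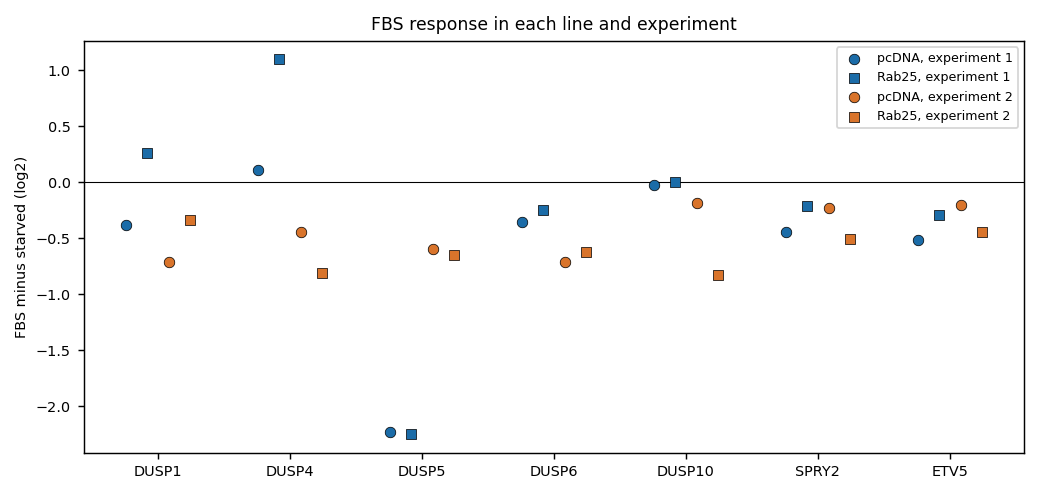
FBS minus starved (log2, vertical axis) of each gene in each line (circle pcDNA, square Rab25) and experiment (blue 1, orange 2); each point is 1 FBS array minus the mean of its 2 starved arrays. DUSP5 reaches -2.25 in experiment 1 and -0.59 in pcDNA cells of experiment 2, and DUSP4 spans from 1.09 to -0.81.

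The FBS response differed between experiments for 5 of 7 genes, where 22.5% of all genes passed the same test. Of the genes called, DUSP5 alone had the shallower fall in experiment 2. DUSP4 (-1.23, SE 0.29, adjusted p = 0.0083), DUSP10 (-0.50, SE 0.14, adjusted p = 0.024), DUSP1 (-0.47, SE 0.13, adjusted p = 0.022) and DUSP6 were more negative there. Without both Rab25 FBS arrays only DUSP5 of the 7 genes kept its call for FBS, where 12.8% of all genes were called. The differences were then -0.70 for DUSP4 (adjusted p = 0.16), -0.29 for DUSP10 (adjusted p = 0.31) and -0.26 for DUSP1 (adjusted p = 0.31). These 3 calls were also lost when either Rab25 FBS array was left out alone. Centring the arrays on their medians ended the calls of DUSP1 (-0.34, adjusted p = 0.067) and DUSP6 (-0.25, adjusted p = 0.14), as did the median of probe sets (-0.48, adjusted p = 0.12, and -0.24, adjusted p = 0.15). In the joint test of all 4 treatment by experiment terms, DUSP5 (adjusted p = 1.5e-06), DUSP6 (adjusted p = 0.011), DUSP1 (adjusted p = 0.029) and DUSP4 (adjusted p = 0.045) passed, where 16.9% of all genes did. Without the Rab25 FBS arrays 9.31% of all genes passed it, DUSP5 (adjusted p = 2.3e-05) and DUSP6 (adjusted p = 0.034) among them, and DUSP1 (adjusted p = 0.26) and DUSP4 (adjusted p = 0.51) did not. With all arrays DUSP10 (0.059), SPRY2 (0.24) and ETV5 (0.83) gave the adjusted p-values in brackets.

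Within single lines, FBS lowered DUSP1, DUSP5, DUSP6 and ETV5 in pcDNA cells, 4 of 7 genes where 6.75% of all genes were called, 4.44% as lower. In Rab25 cells it lowered DUSP5, DUSP6 and ETV5, 3 of 7 where 7.72% were called, 5.08% as lower. The sizes lay close together: DUSP5 differed by -1.41 (SE 0.38, adjusted p = 0.035) in pcDNA and -1.45 (SE 0.38, adjusted p = 0.029) in Rab25 cells. ETV5 differed by -0.36 (SE 0.08, adjusted p = 0.013) and -0.37 (SE 0.08, adjusted p = 0.011), and DUSP6 by -0.53 (SE 0.13, adjusted p = 0.020) and -0.43 (SE 0.13, adjusted p = 0.048). The DUSP6 call in Rab25 cells held in 12 of 24 fits that left out 1 array each, and those of DUSP5 in 19 and 20 of 24 for pcDNA and Rab25. The DUSP1 call in pcDNA cells held in 19 of 24. No difference between the lines in response passed the test for any of the 7 genes with FBS, where 0.209% of all genes did. The widest was that of DUSP1, 0.51 (SE 0.21, adjusted p = 0.37). The comparison of lines and the Rab25 values rest on both Rab25 FBS arrays, which carried the marker signals given above. Leaving out 1 array moved some of the single-line differences by more than 1.5 times. Without FBS replicate 1 of the line the DUSP5 difference was -0.56 in pcDNA and -0.66 in Rab25 cells, and without replicate 2 it was -2.27 and -2.25.

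EGF called none of the 7 genes, and 0% of all 11940 genes passed limma's test. Here and below the shares of all genes are for adjusted p, and counts at an unadjusted p have no such share beside them. At an unadjusted p under 0.05, 1 of the 7 passed. DUSP1 was that gene. It read 13.06 and 12.89 with EGF in pcDNA cells and 13.15 and 12.89 in Rab25 cells, above the starved mean of its line and experiment in 4 of 4 pairings, with a difference of 0.22 (SE 0.10, adjusted p = 0.73). The other differences ran from -0.29 (SE 0.21) for DUSP4, which was below its starved mean in 4 of 4 pairings, to 0.12 (SE 0.27) for DUSP5. The members' median was 0.10 against 0.00 over all genes. ETV5 lay above its starved mean in 4 of 4 pairings by 0.07 to 0.13. This was not particular to EGF. Against the same starved arrays ETV5 was also higher in 4 of 4 pairings with IGF (by 0.01 to 0.16) and with TGF beta (by 0.01 to 0.10).

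IGF called none of the 7 genes over both experiments, where 2.71% of all genes passed by adjusted p. At an unadjusted p under 0.05, for which no share of all genes is given, 4 of the 7 passed. They were DUSP4 at -0.59 (SE 0.21, adjusted p = 0.16), DUSP1 at 0.25 (SE 0.10, adjusted p = 0.24), DUSP6 at -0.22 (SE 0.09, adjusted p = 0.24) and SPRY2 at -0.21 (SE 0.09, adjusted p = 0.23). DUSP4 read 7.37 and 6.33 with IGF in pcDNA cells and 6.60 and 6.50 in Rab25 cells, each below the starved arrays of its line and experiment. Without the Rab25 FBS arrays, whose DUSP4 values enter the shared estimate of spread, the same -0.59 had an adjusted p of 0.016. DUSP6 read 12.21 and 11.52 with IGF in pcDNA cells and 11.96 and 11.23 in Rab25 cells, low on the arrays of experiment 2. DUSP6 fell by 0.43 there (SE 0.07, adjusted p = 0.0065; 2.34% of all genes called), against 0.00 in experiment 1 (adjusted p = 0.99), and the difference between experiments, -0.44, had an adjusted p of 0.057. None of the 7 response differences between experiments passed for IGF, where 1.42% of all genes did, or for EGF, where 0.0838% did; 2 and 0 of the 7 had an unadjusted p under 0.05. In experiment 1 IGF gave differences from -0.60 for DUSP4 to 0.16 for DUSP1.

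TGF beta called none of the 7 over both experiments, where 1.6% of all genes passed by adjusted p. At an unadjusted p under 0.05, for which no share of all genes is given, 2 of the 7 passed, DUSP5 and DUSP1. DUSP5 again differed between experiments. It read 12.54 with TGF beta in pcDNA and 12.16 in Rab25 cells of experiment 1, 0.27 and 0.29 below the starved means, and 11.21 and 10.73 in experiment 2, 0.96 and 1.02 below them. The difference was -0.28 (SE 0.07, adjusted p = 0.067; 1.29% of all genes called) in experiment 1, and DUSP5 fell by 0.99 (SE 0.07, 1.98-fold, adjusted p = 1.6e-06) in experiment 2, where 2.99% of all genes were called. The responses differed by -0.71 (SE 0.09, adjusted p = 0.0041), in a comparison that called 0.402% of all genes; without either Rab25 TGF beta array the call was lost, at differences between -0.76 and -0.66 over all fits that left out 1 array. DUSP1 read 12.71 and 12.51 with TGF beta in pcDNA and 12.63 and 12.23 in Rab25 cells, below the starved mean in 4 of 4 pairings, with a difference of -0.26 (SE 0.10, adjusted p = 0.35). SPRY2 had its highest value of all, 12.82, with TGF beta in Rab25 cells of experiment 2, beside 12.20 in experiment 1, and its difference over both lines was 0.01 (SE 0.09, adjusted p = 0.99). All 4 treatments share the starved arrays, so the treatment differences of a gene are not independent of each other.

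In single lines, EGF, IGF and TGF beta called none of the 7 genes. The shares of all genes called in pcDNA and Rab25 cells were 0% and 0.00838% for EGF, 0% and 0.771% for IGF, and 0.276% and 0.494% for TGF beta; at an unadjusted p under 0.05, 1 member passed with IGF in each line and 0 with EGF or TGF beta. None of the 7 genes passed the test of a difference between lines in the response to EGF, IGF or TGF beta, where 0% of all genes passed for each. Of those 21 pairs, 0 had an unadjusted p under 0.05, and of the 7 with FBS 1 did. The differences ran from -0.06 to 0.20 for EGF, from -0.18 to 0.26 for IGF and from -0.09 to 0.28 for TGF beta.

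ETV5 and DUSP10 were lower in Rab25 than in pcDNA cells over all conditions, 2 of 7 genes where 24.7% of all genes were called, 15.5% as lower. That count is near the share of all genes called in either direction. ETV5 read 11.58 to 12.32 (median 11.90) on the 12 pcDNA arrays and 10.81 to 11.92 (median 11.42) on the 12 Rab25 arrays. The lines overlapped across experiments, but within each of the 10 combinations of treatment and experiment ETV5 was lower in Rab25 cells, by 0.28 to 0.76. The fitted difference was -0.50 (SE 0.04, 1.41-fold, adjusted p = 1.2e-07), and -0.49 without the Rab25 FBS arrays (adjusted p = 3.5e-07). Its other probe sets gave -0.76 and -0.64. In starved cells alone ETV5 read 12.27, 12.23, 11.78 and 11.78 in pcDNA and 11.70, 11.81, 11.28 and 11.24 in Rab25 cells, a difference of -0.51 (SE 0.06, adjusted p = 8.6e-05, and 0.17 without the replicate block). It was the 1 gene of 7 called there, where 14.8% of all genes were, 9.24% as lower, again a count near the share called in either direction.

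DUSP10 was lower in Rab25 cells in 10 of 10 combinations, by 0.06 to 0.71. Its fitted difference was -0.28 (SE 0.07, 1.22-fold, adjusted p = 0.0070), -0.23 without the Rab25 FBS arrays (adjusted p = 0.0053), and -0.25 on its other probe set. In starved cells its difference was -0.19 (SE 0.12, adjusted p = 0.30). DUSP5 was also lower in 10 of 10 combinations, by 0.20 to 0.49, but its difference of -0.35 (SE 0.19) had an adjusted p of 0.20 in a fit whose spread includes the unlike responses of the experiments. When treatment by experiment terms, chosen after seeing the data, were kept in the fit, 4 of 7 genes were called for the lines, DUSP4 and DUSP5 joining ETV5 and DUSP10, where 32.3% of all genes were. Leaving out the Rab25 FBS arrays gave 3 of 7 for the lines (24.7% of all genes) and 2 of 7 in starved cells (18%).

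DUSP4 was lower in 7 of 10 combinations, with a difference of -0.38 (SE 0.15, adjusted p = 0.068). Without the Rab25 FBS arrays it was -0.42 (adjusted p = 0.0041), and in starved cells -0.56 (adjusted p = 0.14 with those arrays in the fit and 0.014 without them). DUSP6 (-0.07, SE 0.06), SPRY2 (0.02, SE 0.06) and DUSP1 (0.01, SE 0.07) gave small differences with adjusted p-values of 0.45, 0.85 and 0.92. DUSP1 was higher in Rab25 cells in 3 of 10 combinations, at most by 0.61 with FBS in experiment 1. The members' median line difference was -0.28, against -0.01 over all genes.

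**Figure D4:**
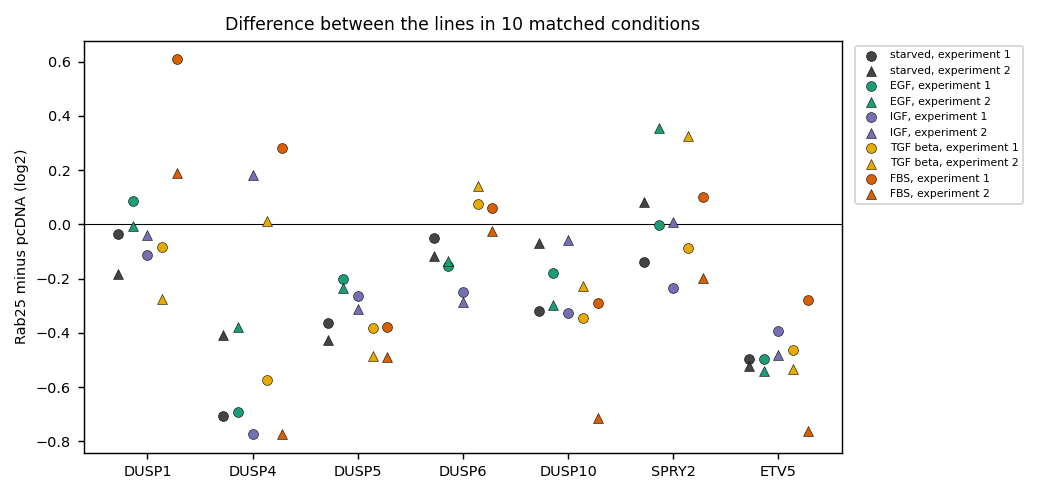
Rab25 minus pcDNA (log2, vertical axis) of each gene in 10 matched conditions; each point is 1 treatment (colour) in 1 experiment (circle 1, triangle 2), and the starved points are differences of means of 2 arrays. All 10 points lie below 0 for ETV5, DUSP5 and DUSP10, and DUSP1 and DUSP4 with FBS in experiment 1 lie above it at 0.61 and 0.28.

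DUSP1, DUSP4, DUSP5, DUSP6 and ETV5 also read lower in experiment 2 than in experiment 1 over all arrays, 5 of 7 where 40.4% of all genes were called, 20.4% as lower. The differences were -0.80 for DUSP4 (SE 0.14, adjusted p = 2.1e-04), -0.56 for DUSP5 (SE 0.18, adjusted p = 0.018), -0.46 for ETV5 (SE 0.04, adjusted p = 8.1e-08), -0.42 for DUSP1 (SE 0.07, adjusted p = 9.1e-05) and -0.41 for DUSP6 (SE 0.06, adjusted p = 3.7e-05). The same 5 genes were called without the Rab25 FBS arrays, where 43.1% of all genes were, at -0.66 for DUSP4, -0.70 for DUSP5, -0.44 for ETV5, -0.36 for DUSP1 and -0.38 for DUSP6. ETV5, DUSP1, DUSP4 and DUSP6 were lower in 10 of 10 combinations of line and treatment counted by array means, and DUSP5 in 8, its FBS values being the 2 exceptions. In starved cells, which received no factor, the same 5 were called, where 31.3% of all genes were (16.6% as lower), with differences from -0.67 (DUSP5, SE 0.05) to -0.27 (DUSP6, SE 0.06); without the Rab25 FBS arrays these 5 were again called (32.5% of all genes). The starved difference of ETV5, -0.48, was not called with the median of its probe sets, at -0.26 (adjusted p = 0.20). That of DUSP4, -0.58, missed the threshold without pcDNA starved replicate 1-2 or 2-1, at -0.54 in each case. DUSP10 and SPRY2 gave 0.00 (SE 0.08) and 0.05 (SE 0.08) in starved cells.

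By group mean, DUSP5 was highest in pcDNA EGF (12.53 ± 0.46, SD, n = 2) and pcDNA starved cells (12.49 ± 0.38, n = 4) and lowest in pcDNA FBS (11.08 ± 0.71, n = 2) and Rab25 FBS (10.65 ± 0.63, n = 2). DUSP6 ran from 12.07 ± 0.07 in Rab25 TGF beta to 11.45 ± 0.42 in pcDNA FBS, and DUSP1 from 13.06 ± 0.21 in pcDNA IGF to 12.29 ± 0.49 in pcDNA FBS (n = 2 each). ETV5 ran from 12.12 ± 0.28 in pcDNA EGF to 11.13 ± 0.45 in Rab25 FBS, with the 4 pcDNA groups other than FBS first. SPRY2 ran from 12.63 ± 0.10 in Rab25 EGF to 12.07 ± 0.09 in Rab25 FBS, with both IGF and both FBS groups last (n = 2 each). DUSP10 ran from 9.57 ± 0.07 in pcDNA EGF to 8.85 ± 0.50 in Rab25 FBS (n = 2 each), all 5 pcDNA groups coming before all 5 Rab25 groups. DUSP4 ran from 7.57 ± 0.43 in pcDNA starved (n = 4) to 6.55 ± 0.07 in Rab25 IGF (n = 2). Neighbours in these orders were closer than the larger of their SDs for every gene, except pcDNA starved over pcDNA FBS for ETV5 (a gap of 0.36) and pcDNA IGF over Rab25 IGF for SPRY2 (a gap of 0.11). These SDs are taken over both experiments and so include the difference between them. The orders make no use of the matching of groups by experiment.

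Among the 7 genes, Pearson correlations over the 24 arrays ran from 0.01 (DUSP4 and SPRY2) to 0.70 (DUSP6 and ETV5), with a median of 0.45 over 21 pairs, and from -0.15 to 0.73 (median 0.33) over the 22 arrays without Rab25 FBS. The arrays share lines, treatments and experiments, so these values are descriptions. By the same measure, the gene most like ETV5 was HEY1 (r = 0.97), followed by SEL1L3 and NDRG1 (0.96 each). DUSP5 was most like LPIN2 (0.95), STX3 (0.94) and TXNRD1 (0.93), DUSP6 most like RNF44 (0.93), ANKRA2 (0.92) and CCNG2 (0.91), and DUSP1 most like IL1A (0.93), CEBPB (0.86) and USP25 (0.85). DUSP4 was most like BTN3A3, MPDZ and PAN2 (0.90, 0.90 and 0.89), and without the Rab25 FBS arrays these values were 0.91, 0.87 and 0.92. The closest genes to SPRY2, ZNF394 (0.79), MXD4 (0.78) and ELF2 (0.74), and to DUSP10, ZNF212 (0.83), POT1 (0.81) and UNGP2 (0.80), were less alike. For DUSP10 these fell by a clear margin without the Rab25 FBS arrays, to 0.70, 0.53 and 0.61.

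Genes around the members in the pathway were read from lists of 66 names, also chosen with earlier results known, of which 54 were measured. FBS called 2 of these 54 higher and 7 lower over both lines, where 17.2% of all genes were called, 10.8% as lower. Together these calls were near the share of all genes, so the genes named here are descriptions. With FBS, all 3 measured other Sprouty and Spred genes fell, among them SPRED2, an inhibitor of RAF activation (by 0.39, SE 0.07, adjusted p = 0.0010), and SPRY1, a relative of SPRY2 (by 0.37, SE 0.09, adjusted p = 0.0091). Their median was -0.39 against -0.03 over all genes. Of 4 other MAP kinase phosphatases 1 rose, DUSP7 (0.55, SE 0.15, adjusted p = 0.019), a cytoplasmic ERK phosphatase related to DUSP6, beside DUSP8 at -0.13 (adjusted p = 0.30). Of 13 other ERK output genes 2 fell, PHLDA1 (by 0.38, SE 0.06, adjusted p = 7.7e-04) and IER3 (by 0.38, SE 0.10, adjusted p = 0.013), the list's median being -0.03. Of 15 measured genes of the RAS to ERK cascade 1 rose, the kinase RPS6KA1 (0.59, SE 0.16, adjusted p = 0.017), and 2 fell, one of them MAP2K1, which encodes MEK (by 0.31, SE 0.08, adjusted p = 0.018). None of 7 other ETS factors (ELK1 -0.23 and ETV1 -0.31), 5 JNK and p38 kinases (MAPK9 0.12 and MAP2K4 -0.09) or 7 receptors (IGF1R -0.20 and EGFR -0.22) passed for FBS, with adjusted p-values of 0.057 to 0.42 for these 6 genes; at an unadjusted p under 0.05, 1 ETS factor, 0 JNK and p38 kinases and 3 receptors did. In pcDNA cells, left when the Rab25 FBS arrays are removed, 10.4% of all genes were called. Of 3 other Sprouty and Spred genes 1 was called there, SPRED2 (-0.34, adjusted p = 0.015), beside SPRY1 at -0.14 (adjusted p = 0.54) and SPRY4 at -0.44 (adjusted p = 0.10). DUSP7 (0.73, adjusted p = 0.022), PHLDA1 (-0.36, adjusted p = 0.021), IER3 (-0.54, adjusted p = 0.022) and RPS6KA1 (0.72, adjusted p = 0.018) were called without them and MAP2K1 (-0.17, adjusted p = 0.37) was not.

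The FBS response of the pathway genes differed between experiments in both directions: of 54, 11 were called as more positive in experiment 2 and 9 as more negative, where 22.5% of all genes were called. By this difference 5 of 13 other ERK output genes were, as DUSP5 was, more positive, and 0 more negative. LIF differed by 0.91 (SE 0.13, adjusted p = 4.2e-04) and HBEGF, an EGF receptor ligand, by 1.00 (SE 0.16, adjusted p = 7.4e-04). SPRY4 (1.02, SE 0.12, adjusted p = 9.9e-05), 1 of 3 other Sprouty and Spred genes, and DUSP7 (0.98, SE 0.18, adjusted p = 0.0019), 1 of 4 other phosphatases, were also more positive. The medians of these 3 lists were 0.21, -0.06 and 0.04, against -0.04 over all genes. Of 15 cascade genes 3 were more positive, among them MAP2K1 (0.41, adjusted p = 0.0076), and 3 more negative, among them RPS6KA1 (-0.82, adjusted p = 0.0029). Of 7 other ETS factors 3 were more negative, among them ELK3 (-0.48, adjusted p = 0.0021) and ETV1 (-0.84, adjusted p = 0.019). Both called receptors of 7, IGF1R (-0.43, adjusted p = 0.014) and ERBB2 (-1.35, adjusted p = 0.019), were more negative, and of 5 JNK and p38 kinases MAP2K4 (0.38, adjusted p = 0.023) was more positive and MAP2K6 (-0.65, adjusted p = 0.038) more negative. Without the Rab25 FBS arrays (12.8% of all genes called) the first 3 lists again held 5, 1 and 1 more positive calls, with LIF at 0.97, HBEGF at 1.12, SPRY4 at 1.03 and DUSP7 at 0.91. The responses behind these differences were not all shallower falls like that of DUSP5. In experiments 1 and 2 of that fit, DUSP7 rose by 0.27 and 1.18. HBEGF (-0.45 and 0.67) and LIF (-0.72 and 0.25) changed sign, and IER3 (-0.89 and -0.19) had a shallower fall. The cascade then held 3 more positive calls and 1 more negative, the ETS factors 1 more negative, the JNK and p38 kinases 2 more positive and the receptors 0 of either, with IGF1R at -0.33 (adjusted p = 0.15) and ERBB2 at -0.34 (adjusted p = 0.25).

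Between the lines, 3 of the 54 pathway genes were called higher and 11 lower, where 24.7% of all genes were called, 15.5% as lower. Together these calls were near the share of all genes, so the genes named here are descriptions. SPRY4 was lower in Rab25 cells (-0.51, SE 0.10, adjusted p = 0.0010), 1 of 3 other Sprouty and Spred genes. Of 4 other phosphatases 0 were called or had an unadjusted p under 0.05 (DUSP8 -0.08 and DUSP2 -0.07). Of 13 other ERK outputs 2 were higher and 4 lower: EGR1, an immediate-early transcription factor, was higher by 1.81 (SE 0.17, adjusted p = 6.5e-07) and HBEGF was lower (-0.77, SE 0.11, adjusted p = 7.1e-05). Among 7 other ETS factors ERF (-0.24, SE 0.07, adjusted p = 0.013) and ELK4 (-0.24, SE 0.07, adjusted p = 0.023) were lower. In the cascade MAP2K2 (-0.14, SE 0.04, adjusted p = 0.018) and RPS6KA3 (-0.18, SE 0.06, adjusted p = 0.048) were lower, 2 of 15. Of 7 receptors IGF1R was lower (-0.60, SE 0.06, adjusted p = 2.5e-06) and INSR higher (0.22, SE 0.07, adjusted p = 0.027), and of 5 JNK and p38 kinases MAP2K4 was lower (-0.17, SE 0.05, adjusted p = 0.023). With the Rab25 FBS arrays left out (24.7% of all genes called), 2 ERK outputs were higher and 3 lower. ERF (-0.15, adjusted p = 0.15), RPS6KA3 (-0.13, adjusted p = 0.16) and MAP2K4 (-0.15, adjusted p = 0.051) then missed the threshold. SPRY4 (-0.49), EGR1 (1.87), HBEGF (-0.82), ELK4 (-0.24), MAP2K2 (-0.17), IGF1R (-0.60) and INSR (0.16) were called. The receptor ERBB2 (0.34, adjusted p = 6.6e-04) and PTPN11 of the cascade (-0.10, adjusted p = 0.039) were called in that fit and not with all arrays.

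For the single factors the lists held few calls, where 0% of all genes passed for EGF, 2.71% for IGF and 1.6% for TGF beta. With EGF, 0 of 54 passed. At an unadjusted p under 0.05, for which no share of all genes is given, 11 did. PHLDA1 (0.23, adjusted p = 0.48) and EGR1 (0.79, adjusted p = 0.52) had the lowest p among ERK outputs. With IGF, ETS2 (0.60, SE 0.13, adjusted p = 0.025) and HBEGF (0.67, SE 0.16, adjusted p = 0.035) rose and the receptor IGF1R fell by 0.59 (SE 0.09, adjusted p = 0.0033), 3 of 54. With TGF beta, SPRY1 fell by 0.48 (SE 0.09, adjusted p = 0.0082) and MAP2K3, an activator of p38, by 0.41 (SE 0.08, adjusted p = 0.0093), 2 of 54.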

How the data were processed

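The deposited table holds 22930 probe sets on 24 arrays as log2 values; the submitters' processing notes name MAS5 and RMA without a version or their order, so the scaling before deposit is otherwise not given in the sources used here. After 524 control probe sets were left out, 19415 carried 1 gene symbol, 125 several and 2866 none; only the first were used, 1 probe set per gene (highest mean), which gave 11940 genes. Differences were fitted with limma 3.58.1 in R 4.3.3 (lmFit, eBayes) on all 24 arrays, with 10 group means and a term for experiment, and p-values were adjusted by Benjamini-Hochberg over all genes of a contrast, at 0.05. Same-numbered arrays deviated together (median r 0.66 over 45 group pairs, lowest 0.09), and the labels give experiment. Treatment by experiment terms were tested in an extended fit. The fits were tested on simulated data. Named genes were all members, the 2 of lowest p of each pathway list, and the 3 of highest r with each member. Members and lists were chosen with earlier results of these data known. Alternatives: normalization, weights, prior, probe set, low values, blocks, experiments and arrays left out.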

Additional observations from a re-analysis of the deposited data

Results flagged for a closer look

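DUSP5 carried the clearest difference between experiments. Its FBS response in experiment 2 minus that in experiment 1 was 1.62 (log2), and its TGF beta response differed by -0.71, both past the test of the difference itself. The FBS responses of DUSP4 (-1.23), DUSP10 (-0.50), DUSP1 (-0.47) and DUSP6 (-0.37) also differed between experiments by that test, with the dependence on the Rab25 FBS arrays given above.

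In 5 further cases both lines moved one way in experiment 1 and the other way in experiment 2, and the test of the difference was not passed. These were the IGF response of DUSP5 (-0.28 as experiment 2 minus 1), the EGF response of DUSP6 (-0.15), the IGF and TGF beta responses of DUSP10 (0.078 and 0.17) and the TGF beta response of SPRY2 (0.36).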

How the results depend on the processing

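The members' calls depended on how the experiments were treated. The counts called over all genes moved between settings too, from 1665 to 3858 for the lines (2944 in the main fit) and for other comparisons as given below. The member counts of each setting are therefore descriptions and were not compared with the share of all genes in it. Without the replicate block (no experiment term), 2 genes were called for FBS over both lines (4 with it), 0 for the starved lines (1) and 0 of 56 for single lines (7); the lines over all conditions kept 2. With array quality weights the counts were 3 for the lines, 2 starved, 1 IGF, 2 FBS and 0 in single lines. Experiment 1 alone gave 4 for the lines, 3 starved, 1 IGF and 1 of 28 line differences in response (0 in the main fit). Experiment 2 alone gave 4, 3, 2 for IGF, 1 for TGF beta, 7 for FBS and 12 in single lines. With treatment by experiment terms, added after seeing the data, they were 4, 3, 3 for IGF, 2 for TGF beta and 13 in single lines. With the groups compared alone they were 3 starved, 3 IGF, 1 TGF beta and 1 in single lines, and with median probe sets 4 in single lines. Without both Rab25 FBS arrays they were 2 starved, 1 IGF, 4 in single lines and 2 of 28 experiment differences (6 in the main fit). Without the 2 arrays of lowest median (Rab25 FBS replicate 2 and Rab25 TGF beta replicate 1, added after seeing the data) they were 2 starved, 1 IGF, 1 line difference and 1 experiment difference. EGF had 0 and experiment 5 in every fit run.

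Leaving out each array in turn gave 2 to 3 for the lines, 1 to 2 starved, 0 to 1 IGF, 0 TGF beta, 3 to 6 FBS, 3 to 9 in single lines, 0 to 1 line differences, 2 to 7 experiment differences and 4 to 5 for experiment in starved cells. The FBS value of DUSP4 over both lines (-0.01) reversed to 0.60 in experiment 1 alone, 0.41 without Rab25 FBS replicate 2 (-0.44 without replicate 1) and 0.40 without the 2 arrays of lowest median. Over all genes the counts called ranged, over arrays left out and over other settings, from 52 to 515 and 10 to 1298 for IGF (323), 757 to 3181 and 367 to 4109 for FBS (2057), 55 to 238 and 55 to 498 for TGF beta (191), 0 to 4 and 0 to 106 for EGF (0), and 730 to 3273 over other settings for starved lines (1767). Counts of response differences ran from 13 to 218 for IGF (169) and 7 to 85 for TGF beta (48) between experiments, and from 3 to 202 for FBS between lines (25). Centring arrays moved the all-gene median of the FBS difference between experiments from -0.04 to 0.09; no member passed the threshold with its direction turned by centring or quantile normalization. The causes were not tested.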
